A study of Homo sapiens with 4 samples.

Results

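TKTL1, the gene of transketolase-like protein 1, and 6 enzyme genes of the pentose phosphate pathway (TKT, TALDO1, PGD, PGLS, RPIA and RPE) were followed through 4 single-cell RNA-seq libraries. The members are the gene rows whose name before any numeral equals one of these 7 symbols, and all 7 were found among 40877 names of 1 gene. TKTL1 was chosen by its measured increase in treated cells, so its difference between treated and untreated libraries is a description and supports nothing by itself.

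H1299 cells, from a human lung cancer of the non-small cell kind, and HCT116 cells, from a human colorectal cancer, were each grown at passage 5 to 10 with the solvent DMSO or with DAC and SB939 together, and read with the 10x Genomics 5′ chemistry. DAC (decitabine) inhibits DNA methyltransferases and was given at 500 nM for 72 h. SB939 inhibits histone deacetylases and was given at 500 nM for 18 h. Over the treatment the drugged medium was renewed each 24 h. Treated libraries are called DAC+SB. Each combination of line and treatment was 1 library, so no replicate, no test and no p-value stands behind any comparison, and the intervals given are 95% intervals that cover counting error only. Levels are CPM, the gene's counts scaled to 1000000 gene plus transposable element (TE) counts. Where 4 values follow each other in library order, they belong to untreated H1299, treated H1299, untreated HCT116 and treated HCT116.

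The libraries held 3578 to 4327 cells and 38927267 to 64524196 counts, and the median cell had 17369.5, 15784.5, 16257.5 and 8449 counts in library order. HCT116 DAC+SB stood apart in depth and also in mitochondrial counts: 1086 of its 4327 cells were above 25% of counts, against 364 of 3658 in HCT116 DMSO and at most 91 in an H1299 library, with medians of 18.6%, 15.8% and up to 8.87%. Of 15158 barcodes, 131 occurred in 2 libraries and 0 in more. A list of 5 H1299 markers summed to 2529 CPM in untreated and 1209 CPM in treated H1299, against 84.6 and 288 in HCT116, and VIM alone gave 2282 and 1151 CPM of the H1299 sums. ZEB1 was at 14.4 CPM in treated H1299 and 14.1 in treated HCT116. The 9 HCT116 markers reported summed to 110.3 and 68.9 CPM in the HCT116 libraries (EPCAM alone 80.7 and 45.2), against 0.263 and 11.3 in H1299. Of these, ESRP1 (2.92 against 2.41 CPM), LGALS4 (1.6 against 1.08) and CDH17 (0.529 against 0.385) were higher in treated H1299 than in treated HCT116. CDX1 and CDH17, both intestinal genes, had 0 counts in HCT116 DMSO, and CDH2 had 0 there as an H1299 marker. The share of TE counts went from 0.199% to 3.09% in H1299 and from 0.319% to 5.56% in HCT116.

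The pentose phosphate pathway branches off glycolysis. Its oxidative arm oxidises glucose phosphate and yields NADPH, the reducing agent of biosynthesis and of glutathione recycling, through enzymes that include the lactonase PGLS and the phosphogluconate dehydrogenase PGD. Its non-oxidative arm interconverts sugar phosphates: the isomerase RPIA makes ribose phosphate for nucleotides, the epimerase RPE makes xylulose phosphate, and the transketolase TKT and the transaldolase TALDO1 pass carbon units back towards glycolysis. TKTL1 is a relative of TKT on the X chromosome, transcribed mainly in the testis and known from some tumours, and whether its protein has transketolase activity of its own is disputed.

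TKTL1 lies at chrX:154295671-154330350 on the plus strand (GENCODE v29, GRCh38). RefSeq places 2 transcript starts in it, at 154295795 and at 154305170. The other genes lie on chromosome 3 (TKT, 53224707 to 53256052, minus strand), chromosome 11 (TALDO1, 747329 to 765024, plus), chromosome 1 (PGD, 10398592 to 10420144, plus), chromosome 19 (PGLS, 17511629 to 17521288, plus) and chromosome 2 (RPIA, 88691644 to 88750935, and RPE, 210002565 to 210022259, both plus). One of the 2 drugs acts on the methylation of cytosine before guanine (CpG), so 3 upstream stretches are shown to set TKTL1 beside a gene that was lower in treated HCT116 and a gene that was higher in both treated lines. Each runs 5′ to 3′ on the gene's strand and ends at the base before the first GENCODE start of that gene. Capitals mark CpG.
TKTL1, chrX:154295545-154295670, plus strand, GRCh38.p14: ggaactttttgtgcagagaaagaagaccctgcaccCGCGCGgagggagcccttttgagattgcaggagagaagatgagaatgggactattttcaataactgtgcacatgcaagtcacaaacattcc
TKT, chr3:53256053-53256272, minus strand, GRCh38.p14: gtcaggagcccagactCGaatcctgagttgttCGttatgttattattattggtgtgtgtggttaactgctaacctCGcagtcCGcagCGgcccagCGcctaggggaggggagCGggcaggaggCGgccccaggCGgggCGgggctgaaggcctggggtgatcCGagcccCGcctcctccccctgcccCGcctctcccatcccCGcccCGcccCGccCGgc
TALDO1, chr11:747214-747328, plus strand, GRCh38.p14: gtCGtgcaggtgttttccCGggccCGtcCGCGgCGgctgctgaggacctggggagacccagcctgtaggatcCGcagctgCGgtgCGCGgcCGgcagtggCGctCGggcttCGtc

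The TKTL1 stretch held 3 CpG in 126 bases, the TKT stretch 17 in 220 bases and the TALDO1 stretch 14 in 115 bases, or 2.38, 7.73 and 12.2 per 100 bases. Over the full 250 bases before the RefSeq start, the first TKTL1 window held 13 CpG and the second 6, whereas the windows of the other members held 24 (TKT), 40 (TALDO1), 27 (PGD), 19 (PGLS), 22 (RPIA) and 21 (RPE). The median over all 35114 RefSeq windows of this length was 11, and 53.4% and 38.1% of them held fewer CpG than the 2 TKTL1 windows, against 65.4% to 97.8% for the other members. The 38 windows of 25 germline genes listed further on had a median of 11. The letters TGACNNNGC, the core of the element that binds the oxidative stress factor NRF2, were found on either strand in the PGD and RPE windows and in 10.9% of all windows. These counts describe the reference sequence. Methylation was not measured, and the deposited features carry no coordinates, so counts could not be assigned to either TKTL1 start.

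TKTL1 was nearly absent with DMSO and present in both treated lines. It had 26, 862, 2 and 3469 counts in library order. The levels were 0.403 CPM (0.263 to 0.590), 13.8 CPM (12.9 to 14.8), 0.0319 CPM (0.00387 to 0.115) and 89.1 CPM (86.2 to 92.1) in the same order. Treated HCT116 was thus highest and treated H1299 next, with untreated HCT116 lowest, and no 2 neighbours in this order had overlapping counting intervals. One of the 2 TKTL1 features, described below, was not listed in untreated HCT116, so up to 9 counts could be missing there. The interval does not cover this, so the separation of the 2 untreated libraries is not secure.

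**Figure D1:**
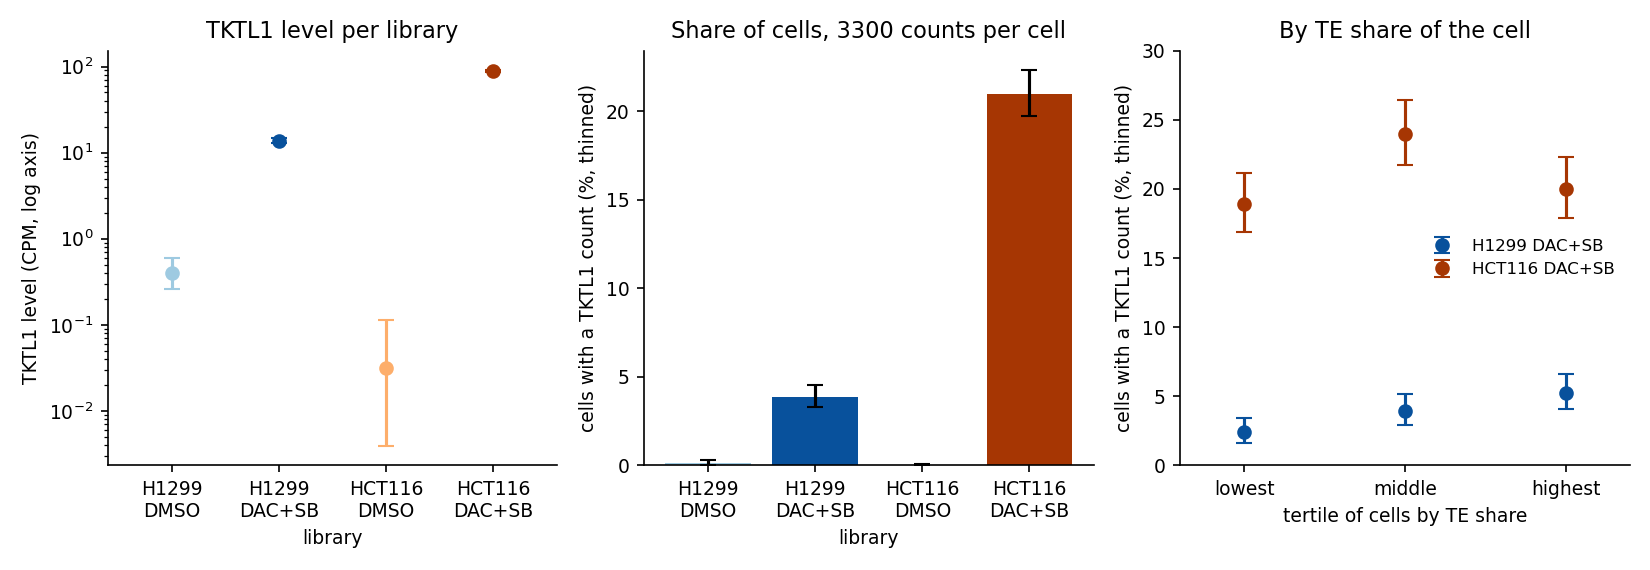
TKTL1 by library. Left: level in CPM on a log axis with exact Poisson 95% intervals, from 0.0319 in HCT116 DMSO to 89.1 in HCT116 DAC+SB. Middle: share of cells with a TKTL1 count after each cell was thinned to 3300 counts, with exact binomial 95% intervals, at most 0.140% with DMSO and 3.86% and 21.0% with DAC+SB. Right: the same share in treated cells split into tertiles by their TE share, which stepped upwards in H1299 and not in HCT116.

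The ratio of DAC+SB to DMSO was 34.3 (23.2 to 52.8) in H1299 and 2791 (772 to 23056) in HCT116, or 5.10 (4.54 to 5.72) and 11.45 (9.59 to 14.49) on the log2 scale. The HCT116 ratio rests on 2 DMSO counts. The 26 H1299 DMSO counts lay in 10 cells, and the interval takes counts as independent, so clumping within cells is not covered. The numbered TKTL1 feature was not listed in HCT116 DMSO, and no numbered feature was listed below 10 counts in any library. With 9 counts assumed there the ratio would be 507 (8.99 on the log2 scale), and with that feature left out of both HCT116 libraries the log2 ratio was 10.50. H1299 minus HCT116, the log2 ratios differed by -6.35 (-8.43 to -4.27), or -3.89 with the 9 assumed counts. The interval of this difference is a normal approximation, which is poor at 2 counts. It is too narrow on the lower side, since the exact HCT116 interval alone reaches 14.49. Between the treated libraries the log2 ratio of H1299 to HCT116 was -2.69 (-2.80 to -2.58), a comparison that does not use the sparse DMSO counts.

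The deposited table splits each of these genes into a numbered feature and one without a numeral, whose meaning no source used here gives. For TKTL1 the numbered feature went from 11 to 222 counts in H1299 and from 0 (not listed) to 1663 in HCT116. The unnumbered feature went from 15 to 640 and from 2 to 1806. The numbered feature made up 25.8% of treated H1299 counts and 47.9% of treated HCT116 counts, so the treated lines differed in this split: the log2 ratio of H1299 to HCT116 was -3.59 for the numbered and -2.18 (-2.31 to -2.05) for the unnumbered feature. No TKTL1 counts lay under a name that joins several genes.

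TKTL1 was detected in a minority of treated cells. Without thinning, 10 of 3578 untreated and 580 of 3726 treated H1299 cells had a count (0.279% and 15.6%). In HCT116 it was 2 of 3658 untreated and 1629 of 4327 treated cells (0.0547% and 37.6%), at the median depths given above. After each cell was thinned to 3300 counts, which left out 402 HCT116 DAC+SB cells, the shares were 0.140% (0.0454 to 0.326), 3.86% (3.27 to 4.53), 0% and 21.0% (19.7 to 22.3). The 0 of 3658 thinned HCT116 DMSO cells has a Clopper-Pearson upper limit of 0.101%, and 3 counts would be 0.0820%. With the unlisted numbered feature left out, the thinned HCT116 DAC+SB share was 12.4%. Cells that lack TKTL1 in the treated libraries could not be told from cells in which it was missed, and no cell type known to lack it was captured beside them, so the part of free RNA was not tested.

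Positive cells differed in how much they held. The 26 H1299 DMSO counts lay in 10 cells, with up to 7 in a cell. Positive cells held a mean of 1.49 counts in H1299 DAC+SB and 2.13 in HCT116 DAC+SB, with up to 7 and up to 16 in a cell. At 3300 counts per cell the variance of TKTL1 over its mean was 1.15 in H1299 DAC+SB and 1.53 in HCT116 DAC+SB, where 1 is the value of pure counting noise. Across the other members and all libraries this ratio lay between 1.01 (RPE in H1299 DAC+SB) and 1.24 (TKT and PGD in HCT116 DAC+SB). The HCT116 value of TKTL1 was therefore the highest among the members.

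Treated cells were also split into tertiles by the share of TE counts in the cell, at 3300 counts. In H1299 DAC+SB a TKTL1 count was found in 2.42% (1.64 to 3.43) of the lowest tertile, 3.95% (2.93 to 5.18) of the middle one and 5.23% (4.06 to 6.62) of the highest one, each of 1242 cells. The lowest and highest tertiles had non-overlapping intervals, at median depths of 15667.5 and 15695.5 counts before thinning, and the intervals of the 6 other members overlapped there. In HCT116 DAC+SB the shares were 18.9% (16.9 to 21.2), 24.0% (21.7 to 26.4) and 20.0% (17.9 to 22.3), with no steady order. The middle tertile lay above the lowest with non-overlapping intervals, and the median depth went from 10036 to 8129.5 counts between the outer tertiles. The CPM of TKT (132 and 103), TALDO1 (197 and 167), PGD (63.2 and 43.3) and RPE (17.6 and 8.80) was lower in the highest HCT116 tertile than in the lowest, with intervals that did not overlap. HCT116 DAC+SB cells above 25% mitochondrial counts had TKTL1 in 22.5% (19.7 to 25.6) of 795 cells, against 20.6% (19.2 to 22.1) of 3130 other cells. Before thinning the order was the other way, 32.3% against 40.6% of these cells. The 795 are those of the library's 1086 high-mitochondrial cells that were deep enough to thin. In the same high-mitochondrial cells TKT (101.0 against 122 CPM), TALDO1 (139.5 against 199), PGD (37.7 against 52.9) and PGLS (17.5 against 26.5) were lower with non-overlapping intervals, at a median depth of 5326 against 9976 counts before thinning. How many of all genes separate in these splits was not computed, so no member is called particular from them. Mitochondrial and TE counts are part of the CPM total, so a larger share of either lowers the CPM of other genes. The median mitochondrial share was 30.2% in the high-mitochondrial HCT116 DAC+SB cells and 16.3% in the others. The mean TE share was 2.50% and 10.0% in the outer HCT116 tertiles. The part of these shares and of depth in the splits was not tested. Without the cells above 25%, the HCT116 log2 ratios of DAC+SB to DMSO were 11.25 for TKTL1, 1.07 for TALDO1, -0.49 for TKT, -0.70 for PGD, -0.88 for PGLS, -1.04 for RPIA and -0.24 for RPE, with 2 members still at least 2-fold higher and 1 lower.

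Treated HCT116 cells with a TKTL1 count (824 thinned cells) were compared with those without (3101 cells). TALDO1 was at 214 CPM (197 to 232) with TKTL1 and 180 CPM (172 to 189) without. TKT was at 120 CPM (107 to 133) and 117 CPM (111 to 124), with overlapping intervals. In treated H1299, with 144 positive cells, PGLS was at 42.1 CPM (25.7 to 65.0) with TKTL1 and 72.6 CPM (67.8 to 77.6) without, and the intervals of the other members overlapped. How many of all genes have non-overlapping intervals in these splits was not computed, so neither TALDO1 nor PGLS is called particular. Over pairs of members with at least 100 thinned counts each, Pearson's r across the cells of a library lay between -0.0320 and 0.0562. The cells of a library share its depth and preparation. Counts this sparse lower r, so these values show neither a relation nor its absence.

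The 3 measured genes on either side of TKTL1 were read in the same way. TEX28, a testis gene on the minus strand whose annotated body overlaps the first 183 bases of TKTL1, had 0, 0, 0 and 2 counts in library order. The next measured genes before it, the opsin genes OPN1MW and OPN1LW, had at most 8 counts in any library. All 3 were at 0 in both DMSO libraries, so their ratios are lower bounds or cannot be formed, and nothing is read from them. On the other side FLNA, which encodes the actin cross-linker filamin A and lies 18174 bases beyond TKTL1, had 10450, 10114, 13047 and 8003 counts in that order. Its log2 ratio of 0.00048 (-0.039 to 0.040) in H1299 compared with -0.019 (-0.059 to 0.021) in HCT116. EMD (emerin, of the nuclear envelope) was at 0.27 and -0.26 and the ribosomal protein gene RPL10 at -0.094 and -0.27. Whether the counting used strand is not stated, so reads in the overlap of TKTL1 and TEX28 cannot be told apart.

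The genes whose levels over the 4 libraries lay closest to those of TKTL1, by Euclidean distance of log2(CPM + 1) among 15504 other genes, were CTC-497E21.4 (distance 0.573), THY1 (0.724), MT1A (0.740), RP11-805L22.3 (0.801) and RP11-620A17.2 (0.996). THY1, a surface glycoprotein also called CD90, was at 0, 18.8, 0.192 and 107 CPM in library order. MT1A, a metallothionein gene, was at 0, 10.2, 0.0479 and 67.9 CPM in that order. All 5 were thus highest in HCT116 DAC+SB and lower in H1299 DAC+SB, as the measure selects.

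A list of 28 germline genes, which are normally transcribed in the germ line and often silenced by methylation elsewhere, was set beside TKTL1. Of the 27 with a row, 23 reached 100 counts in an H1299 library and 21 in an HCT116 library. In H1299, 13 of the 23 reached it only with DAC+SB, as TKTL1 did in both lines, and all 13 were at least 2-fold higher, a call that this way of passing nearly fixes: 92.0% of all such genes were. Of the 10 that reached 100 counts with DMSO, 1 was higher (DDX43, 104 and 1673 counts), 1 lower and 8 between, where 6.73% of all such genes were higher. In HCT116, 18 of the 21 reached it only with DAC+SB and all 18 were higher, against 98.9% of all such genes, and of the 3 others 1 was higher (MAGEA3, 928 and 1519 counts) and 2 lay between, against 7.47%. Over both kinds of gene together, 18.3% were at least 2-fold higher in H1299 and 16.2% in HCT116, so the tally of the list, 14 and 19 higher, comes almost wholly from genes that passed by being high with DAC+SB and supports nothing about the list. BRDT, a testis bromodomain gene, had 0 and 1719 counts in H1299 and 4 and 1330 in HCT116, DMSO first. The germ cell helicase gene DDX4 had 1 and 361, and 1 and 173. MAEL, a gene of transposon silencing in the germ line, had 0 and 1001, and 1 and 1002. PAGE5 had 0 and 577, and 0 and 1776, and DDX43 in HCT116 had 1 and 494. MAGEB2, by contrast, had 0 and 4397 counts in H1299 and was already at 4013 with DMSO in HCT116 (2750 with DAC+SB).

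The 6 other members were moderately expressed in every library and did not share the size of the TKTL1 difference. Of all 7 members, 1 (TKTL1) was at least 2-fold higher and 0 were at least 2-fold lower with DAC+SB in H1299, where 18.3% of 14610 genes were higher and 7.34% lower. In HCT116, 2 (TKTL1 and TALDO1) were higher and 1 (RPIA) was lower, where 16.2% of 13539 genes were higher and 20% lower. At a 4-fold threshold TKTL1 alone was higher in each line and 0 members were lower. Over all genes 11% were higher and 0.349% lower in H1299, and 9.63% and 3.69% in HCT116. TKTL1 was chosen for its increase and reached 100 counts only with DAC+SB in both lines. Of all such genes 92.0% in H1299 and 98.9% in HCT116 were at least 2-fold higher. The TKTL1 calls are therefore not read as a result. The 6 others reached 100 counts with DMSO, where 6.73% of genes in H1299 and 7.47% in HCT116 were at least 2-fold higher. Of these 6, 0 were at least 2-fold higher in H1299 and 1 (TALDO1) in HCT116. The median log2 ratio of the 6 members without TKTL1 was -0.22 in H1299 and -0.60 in HCT116, and over all genes it was -0.072 and -0.23. The all-gene medians are raised by genes that reached 100 counts only with DAC+SB. A median over genes that passed with DMSO, as the 6 did, was not computed, so these distances are not read as a result. The summed level of the 6 was 392, 373, 467 and 434 CPM in library order. The sum thus differed little between treatments while the single genes moved in different directions.

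**Figure D2:**
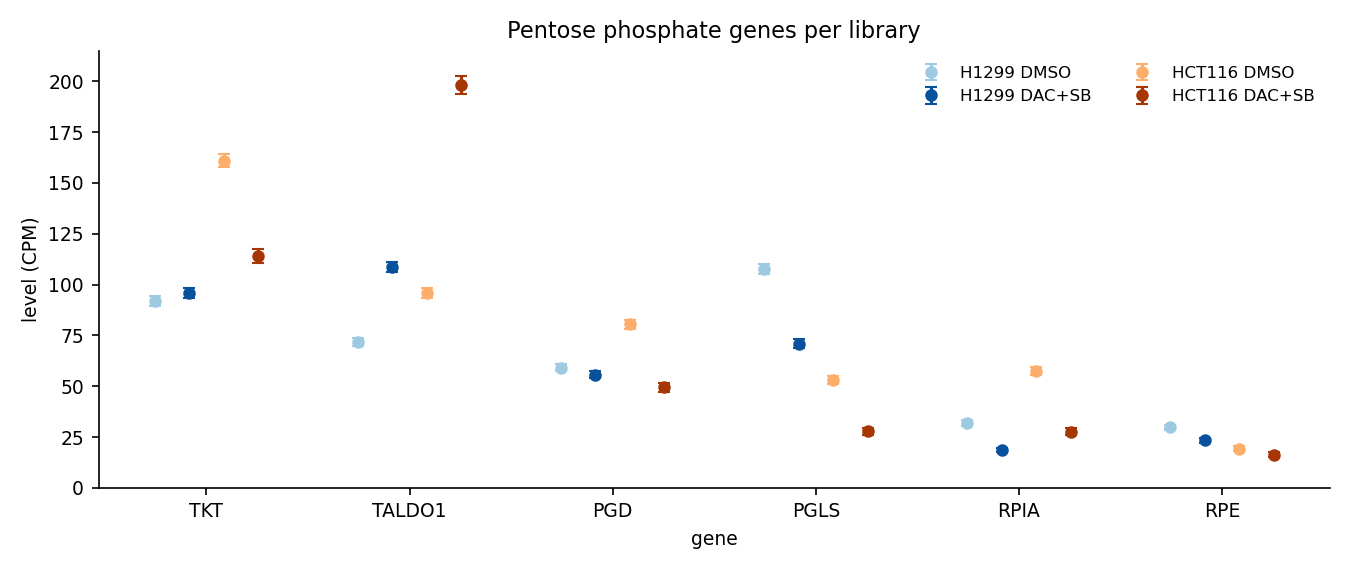
Level in CPM of the 6 other members in each library, with exact Poisson 95% intervals. TALDO1 was higher with DAC+SB in both lines, PGLS and RPIA were lower in both, and TKT and PGD were lower by a larger margin in the HCT116 pair (PGD) or there alone (TKT).

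TALDO1, the transaldolase, was the member besides TKTL1 that was higher in both treated lines. In library order it stood at 71.7 (69.7 to 73.8), 109 (106 to 111), 95.9 (93.5 to 98.4) and 198 CPM (194 to 203). The log2 ratios were 0.60 (0.54 to 0.65) for H1299 and 1.05 (1.00 to 1.10) in HCT116. The HCT116 library with DAC+SB was highest. That ratio dropped just below 2-fold without the 5% of cells with most counts and as a mean over cells, the lowest log2 value being 0.96. The share of cells with a TALDO1 count at 3300 counts was 20.9%, 27.1%, 25.1% and 43.1% in library order, and 63.2%, 70.8%, 70.2% and 67.7% without thinning.

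TKT, the transketolase itself, showed no such increase. H1299 held 92.0 CPM (89.6 to 94.3) untreated and 95.6 CPM (93.2 to 98.1) treated, and HCT116 161 CPM (158 to 164) untreated and 114 CPM (111 to 118) treated. The log2 ratio was 0.056 (0.0040 to 0.11) in H1299 and -0.50 (-0.55 to -0.44) in HCT116, where the all-gene median was -0.23. The lines' log2 ratios differed by 0.55 (0.48 to 0.62). TKTL2, an intronless relative, had 0 counts with DMSO in both lines, 35 in H1299 DAC+SB and 17 in HCT116 DAC+SB.

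RPIA, which makes ribose phosphate, had the lowest ratio of the members in both lines. In library order it was at 31.8 (30.4 to 33.2), 18.5 (17.4 to 19.6), 57.5 (55.6 to 59.4) and 27.6 CPM (25.9 to 29.3). The log2 ratios were -0.78 (-0.89 to -0.68) and -1.06 (-1.16 to -0.96), and with gene counts alone as the denominator the HCT116 value was -0.98. RPE, the epimerase, was at 29.7, 23.4, 19.2 and 16.3 CPM in the same order, with log2 ratios of -0.35 (-0.44 to -0.25) and -0.24 (-0.38 to -0.10). The HCT116 value of RPE lay at the all-gene median.

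In the oxidative arm, PGLS was lower in both treated lines. In library order its levels were 108 (105 to 110), 70.9 (68.9 to 73.1), 53.0 (51.2 to 54.9) and 27.8 CPM (26.2 to 29.5). The log2 ratios were -0.60 (-0.66 to -0.55) and -0.93 (-1.03 to -0.83), and averaging over cells gave -1.09 for HCT116, past 2-fold. PGD, which follows PGLS in the pathway, was at 59.2, 55.7, 80.5 and 49.5 CPM in that order. Its log2 ratio was -0.087 (-0.15 to -0.020) in H1299, close to the all-gene median, and -0.70 (-0.78 to -0.63) in HCT116.

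**Figure D3:**
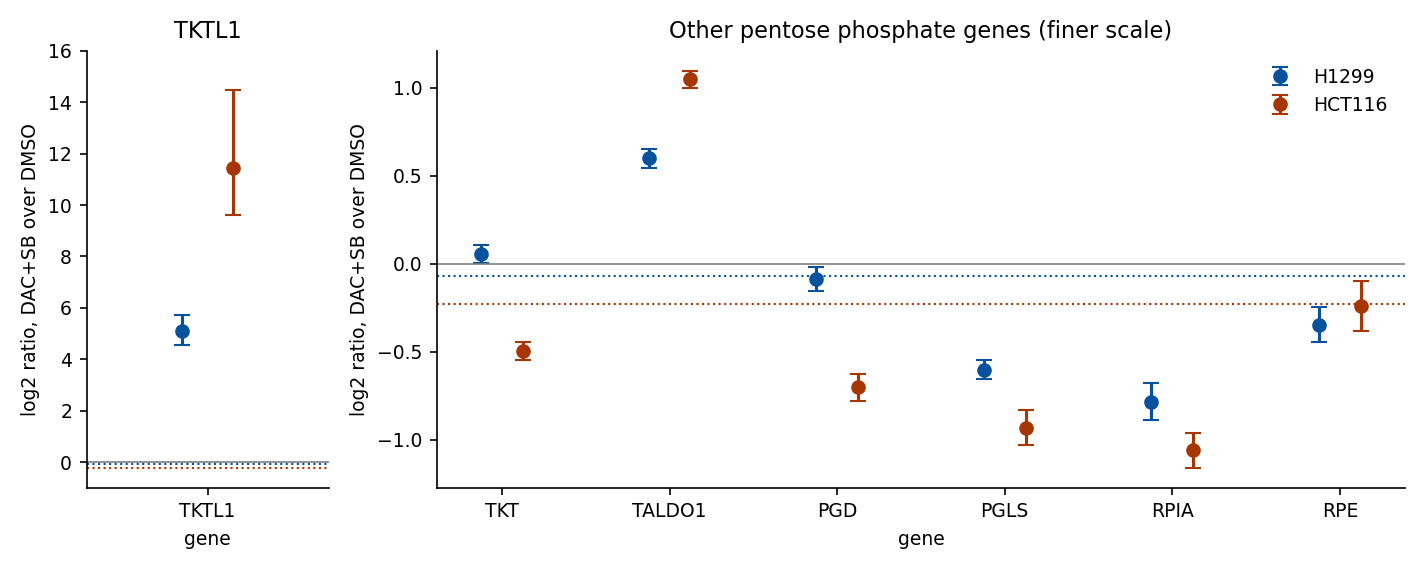
Log2 ratio of DAC+SB to DMSO for TKTL1 (left) and for the other 6 members on a finer scale (right), with exact conditional binomial 95% intervals. Dotted lines are the medians over all genes that reached 100 counts, -0.072 in H1299 and -0.23 in HCT116. RPIA and PGLS lie below both lines and TALDO1 above them.

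The numbered and unnumbered features of a gene did not always change alike. In H1299 the unnumbered RPIA feature had 1557 counts untreated and 681 treated (log2 ratio -1.15, -1.28 to -1.01), while the numbered one had 493 and 471 (-0.018, -0.20 to 0.17). In HCT116 the RPIA values were -1.56 (-1.70 to -1.42) and -0.30 (-0.45 to -0.15). The low RPIA ratio thus lay mostly in the unnumbered feature. PGLS in H1299 showed the reverse, with the numbered feature at -0.78 (-0.84 to -0.72) and the unnumbered one at 0.072 (-0.048 to 0.19), from 1133 and 1152 counts. RPE in HCT116 was at 0.27 (0.061 to 0.47) in the numbered feature and -0.69 (-0.89 to -0.49) in the unnumbered one.

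The difference of the 2 features' log2 ratios, numbered minus unnumbered, was 1.13 (0.90 to 1.35) for RPIA in H1299 and 1.26 (1.06 to 1.46) in HCT116, and -0.85 (-0.98 to -0.72) for PGLS in H1299. Over the 7195 H1299 genes with at least 100 counts in both features it had a median of 0.14 and an interquartile range from -0.17 to 0.49, and over 7982 HCT116 genes a median of 0.32 and an interquartile range from -0.065 to 0.73. RPIA stood above 92.0% and 90.8% of these genes, and PGLS in H1299 above 5.93%. TKTL1 in H1299, at -1.08 (-2.22 to 0.064), stood above 3.77%, from 11 numbered and 15 unnumbered DMSO counts. TKT, TALDO1 and PGD had both features on the same side of 0 except TKT in H1299, at 0.14 and -0.018.

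**Figure D4:**
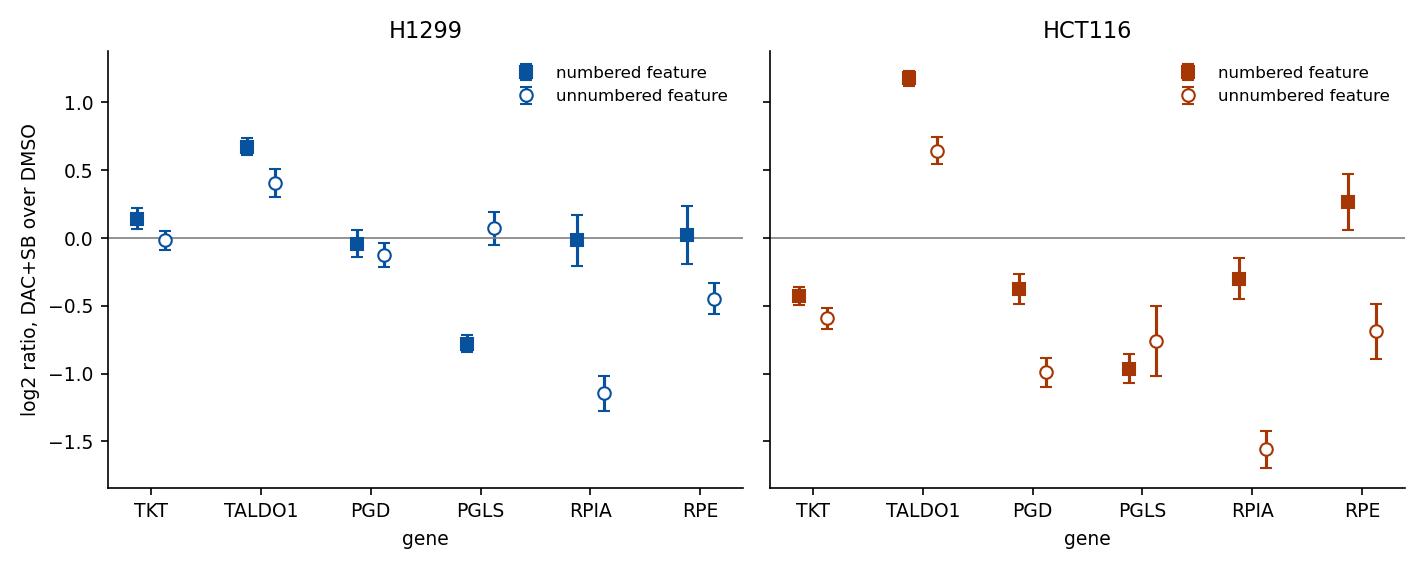
Log2 ratio of DAC+SB to DMSO in the numbered (filled squares) and unnumbered (open circles) feature of the 6 members in H1299 (left) and HCT116 (right), with exact conditional binomial 95% intervals. The 2 features of RPIA are far apart in both lines, and those of PGLS in H1299.

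The lines already differed with DMSO. PGLS (log2 ratio of H1299 to HCT116 1.02, 0.96 to 1.08) and RPE (0.63, 0.52 to 0.73) were higher in H1299. RPIA (-0.86, -0.93 to -0.78), TKT (-0.81, -0.85 to -0.76), PGD (-0.44, -0.51 to -0.38) and TALDO1 (-0.42, -0.48 to -0.36) were lower in H1299. TKTL1 did not reach 100 counts in either, and of the other 6, 1 (PGLS) was at least 2-fold higher in H1299 and 0 were lower, where 20.5% of 13796 genes were higher and 15.2% lower. With DAC+SB the H1299 values over HCT116 were 1.35 for PGLS, 0.52 for RPE, 0.17 for PGD, -0.26 for TKT, -0.58 for RPIA and -0.87 for TALDO1. Thus 1 member (PGLS) was at least 2-fold higher in H1299 and 1 (TKTL1) lower, where 25.4% of 14875 genes were higher and 12.1% lower. The same 4 libraries enter these and the treatment ratios, so the values are not independent.

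Related gene lists were described by the same 2-fold count. Over all genes, 18.3% were higher and 7.34% lower in H1299, with a median log2 ratio of -0.072. In HCT116 16.2% were higher and 20% lower, with a median of -0.23. Of genes that reached 100 counts with DMSO, 6.73% in H1299 and 7.47% in HCT116 were higher. Lower were 1072 of 12629 and 2706 of 12248. Nearly all genes compared in these lists are of this kind, so few or 0 higher is not read as a result. The all-gene medians are raised by genes that passed only with DAC+SB, and a median over genes of this kind was not computed. The exceptions were ALDOC and SRXN1 in H1299 and ALDH1L1 in HCT116, which reached 100 counts only with DAC+SB and were counted as higher. A list of 13 genes took in ribose phosphate activation and nucleotide synthesis and salvage, with later purine steps among them. In H1299 0 of these were higher and 3 lower, with a median log2 ratio of -0.58. In HCT116 0 were higher and 5 lower, with a median of -0.57. The purine synthesis genes PFAS (-1.58 and -2.08, H1299 first) and PAICS (-1.04 and -1.55) were among the lowest of this list in both lines, with PPAT (-1.02) in H1299 and GART (-1.55) in HCT116. PRPS1, whose product activates the ribose phosphate that RPIA makes, was at -0.51 and -0.88. All 13 reached 100 counts in both lines. ADSL, at -0.59 and -1.05, was at -0.42 and -0.60 with its joined name added, and so was no longer among the 5 lower in HCT116.

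Of 8 other pathway or pentose genes, 6 reached 100 counts in H1299, where 0 were higher and 2 lower (median -0.37), and 5 in HCT116, where 0 were higher and 3 lower (median -1.85). DERA, an aldolase of deoxyribose phosphate, was at -1.01 (-1.09 to -0.94) and -2.70 (-2.92 to -2.49), and the gluconate kinase gene IDNK at -1.05 and -1.85. H6PD, a dehydrogenase of the endoplasmic reticulum, was at -0.47 (-0.69 to -0.25) and -1.85 (-2.27 to -1.46). Among 20 glycolysis genes 19 reached 100 counts, with medians of -0.11 and -0.12. In H1299 3 were higher and 0 lower, and in HCT116 1 was higher and 5 were lower. TIGAR, a phosphatase that diverts sugar towards the pentose phosphate pathway, had log2 ratios of 1.13 (1.05 to 1.21) for H1299 and 2.30 (2.18 to 2.41) for HCT116. Its counts were 1949, 4119, 806 and 2464 in library order. ALDOC (2.89) and ENO2 (1.63), the brain forms of aldolase and enolase, were the others past 2-fold in H1299, and PFKL (-1.73) and GPI (-1.56) were the lowest in HCT116.

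**Figure D5:**
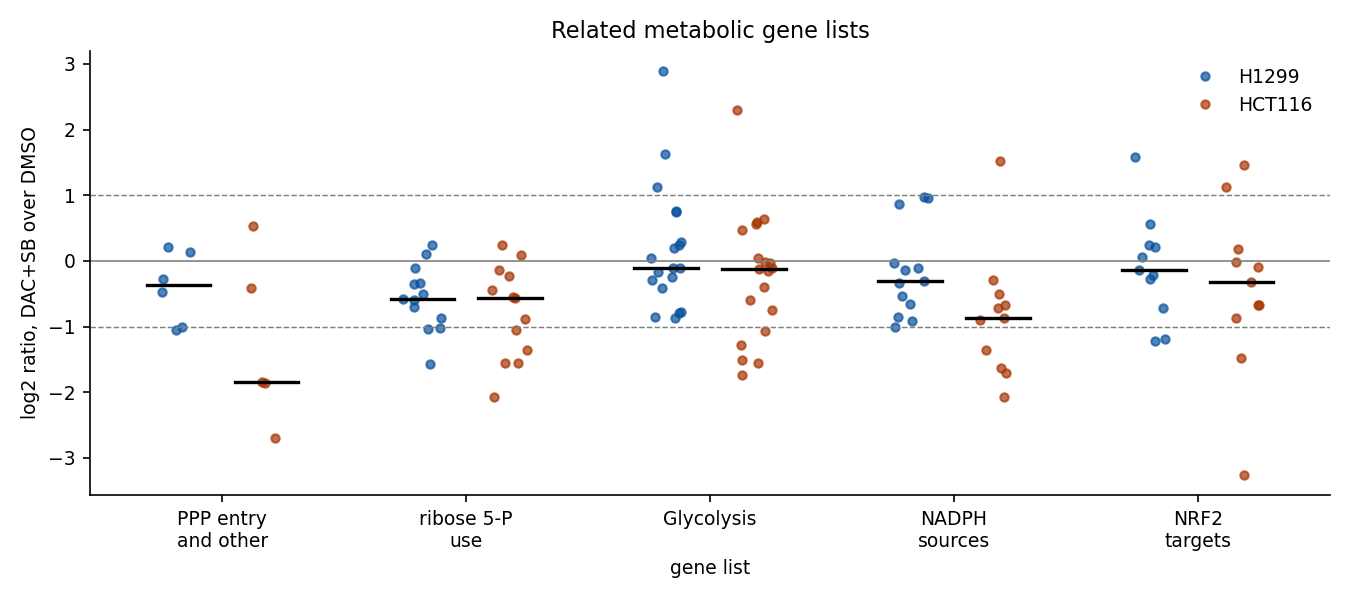
Log2 ratio of DAC+SB to DMSO of each gene that reached 100 counts, for 5 metabolic gene lists, in H1299 (blue) and HCT116 (brown). Black bars are medians and dashed lines mark 2-fold. The genes of the list labelled ribose 5-P use, which includes later purine steps, lie mostly below 0 in both lines. No gene of that list is past 2-fold upwards.

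Of genes of other NADPH sources, 10 of the 11 compared in HCT116 lay below the all-gene median, and 9 of 13 in H1299. All 13 compared in H1299, and 10 of the 11 in HCT116, reached 100 counts with DMSO. Genes of this kind lie below that median more often than all genes do, by a share not computed. The tallies are therefore not read as a result about the list. Of 14 on the list, 13 reached 100 counts in H1299 (0 higher, 0 lower, median -0.30) and 11 in HCT116 (1 higher, 4 lower, median -0.86), where 16.2% of all genes were higher and 20% lower. The 1 higher was ALDH1L1, a folate dehydrogenase gene, at 1.52 (1.07 to 1.98), named after its value was seen. The folate enzyme gene MTHFD1 was at -0.999 (-1.09 to -0.91), just short of 2-fold, and -1.63 (-1.79 to -1.47), MTHFD1L at -2.07 and the malic enzyme gene ME1 at -1.70 in HCT116. IDH2, a mitochondrial isocitrate dehydrogenase gene, was at 0.97 (0.86 to 1.08) in H1299 and at -0.29 (-0.40 to -0.18) in HCT116. ALDH1L2 was at 0.96 in H1299 and did not reach 100 counts in HCT116. Of 15 targets of NRF2, a factor that also controls several pathway genes, 11 reached 100 counts in each line. In H1299 1 was higher and 2 were lower (median -0.14), where 18.3% of all genes were higher and 7.34% lower. In HCT116 2 were higher and 2 lower (median -0.32), where 16.2% of all genes were higher and 20% lower. All 11 compared in HCT116 reached 100 counts with DMSO, and 7.47% of such genes were higher. Counts this small are not read as a result about the list. SLC7A11, the cystine transporter gene, was at -1.22 and -3.26, GCLM of glutathione synthesis at -1.19 in H1299 and TXNRD1 at -1.48 in HCT116. In H1299 the SRXN1 log2 ratio was 1.58 (1.21 to 1.96). Its HCT116 ratio was 1.12 (0.88 to 1.37). OSGIN1 lay on opposite sides of 0: its H1299 ratio was -0.71 (-0.84 to -0.58), while HCT116 gave 1.45 (1.23 to 1.68).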

How the data were processed

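Whole-number counts per cell were taken as the authors deposited them, in one table for gene features and another for TE loci. GRCh38, hg38, CASAVA and STAR are named in the submitters' processing notes. Roles, the counting tool, the annotation, the cell filter and whether counts are unique molecules are not given here by any source. Cells were assigned to libraries by the name at the end of each barcode. All 15289 cells were used and no doublet caller was run. Counts were summed per gene name and library and divided by gene plus TE counts. Names that join several genes (2419) were left out, and none held a member. Shares carry Clopper-Pearson, sums Poisson and ratios conditional binomial 95% intervals, and differences of log2 ratios normal intervals on log Poisson counts. A count of 0 was set to 3 counts in a ratio, which is then a lower bound. A gene was compared where either library reached 100 counts. Cells were thinned to 3300 counts, the lowest 10th percentile of the libraries rounded down. Scripts used Python 3.11.15, NumPy 2.4.6, SciPy 1.17.1 and pandas 2.3.3, and the ratio step was tested on simulated data. The simulated counts were Poisson, for genes with at least 100 DMSO counts, so they cover neither TKTL1 nor clumping within cells. Gene positions are from GENCODE 29 and upstream sequences from RefSeq (GRCh38.p14), in which all 7 members matched. All members were named, with the 5 genes nearest TKTL1, 3 neighbours on each side, and of each list up to 3 genes with the largest ratio in a line. PRPS1, ADSL, TKTL2, ALDH1L1 and MAGEA3, and DDX43 in H1299, were added after their values were seen. Members and lists were chosen with earlier results of these data known. A fixed marker and a fixed list gene are not reported here.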

Additional observations from a re-analysis of the deposited data

Results flagged for a closer look

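TKT was the member whose ratio lay on opposite sides of 0 in the 2 lines with both counting intervals off 0. Its log2 ratio of DAC+SB to DMSO was 0.056 in H1299 and -0.50 in HCT116. Each direction rests on 1 library per arm, and the difference between the lines was not tested. The H1299 interval begins at 0.0040, so this side is the weaker one.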

How the results depend on the processing

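No paired analysis was possible because each group is 1 library and the labels carry no replicate numbers. The TKTL1 log2 ratios stayed within their counting intervals under the 7 other settings of denominator, features, cells and weighting in both lines. Adding joined names could not move them, as no joined name held TKTL1. With 9 counts added to HCT116 DMSO, chosen after seeing the data, the HCT116 value was 8.99 and the difference between the lines -3.89. The number of members at least 2-fold higher in HCT116 was 1 at a 4-fold threshold, without the 5% of cells with most counts and as a mean over cells. The number lower in HCT116 was 0 at a 4-fold threshold and with gene counts only, and 2 as a mean over cells. Without thinning, the share of cells with TKTL1 was 15.6% in H1299 DAC+SB and 37.6% in HCT116 DAC+SB, and with numbered features only where listed in both libraries of the line it was 12.4% in HCT116 DAC+SB. Of 84 log2 values of the 6 other members under alternatives, 84 kept their sign and 74 lay within the counting interval. Adding joined names, and keeping numbered features only where listed in both libraries, could not change any value of these members. Both settings are included in the 84 and the 74, so these tallies overstate the stability. On the scale of the plain ratio of DAC+SB to DMSO, 0 changed by over 1.5 times. The H1299 and HCT116 DMSO libraries held 26 and 2 TKTL1 counts, which limits the precision of its ratios.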
